A study of Mus musculus with 6 samples.

Results

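Immediate early genes were followed in the adult mouse brain with and without BAHD1, a chromatin factor linked to gene repression. The members were 10 genes chosen by name, Fos, Fosb, Junb, Egr1, Egr2, Arc, Npas4, Nr4a1, Ier2 and Dusp1. Each matched a single row among the 53801 genes of the count table, and all 10 had enough reads to be tested. RNA-seq was run on one frozen hemisphere of each of 3 Bahd1-WT (Bahd1+/+) and 3 Bahd1-KO (Bahd1-/-) mice of the C57BL/6 strain, males of about 70 weeks with no treatment other than the genotype. The knockout was constitutive, so BAHD1 was absent from every cell type and throughout life, and the homozygous animals are survivors of a mutation that causes some perinatal death. A hemisphere mixes all brain cells, and fewer cells of a type cannot be told apart from less RNA per cell.

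Immediate early genes are transcribed within minutes of a stimulus such as synaptic activity, without any need for new protein. Calcium entry and the MAP kinase cascade activate factors already bound at their promoters, mainly CREB at the cyclic AMP response element and SRF with its partners at the serum response element. Most products are transcription factors that pass the signal on to slower target genes, while others act directly at the synapse or switch the signalling off again. In the resting brain many of their transcripts are low, and their levels depend in part on what the animal experienced shortly before death.

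Bahd1 itself, which tests the genotype labels, gave 1383, 844 and 1099 reads in Bahd1-WT and 0, 14 and 1 in Bahd1-KO. Depth ranged from 42297150 to 93557948 counts per library, so that the smallest level considered measurable, 3 counts, was 0.0315 to 0.0690 CPM (counts scaled to library size). This floor covers counting error only, whereas the intervals of fold changes include the spread between mice. Markers of neurons were abundant in every library, with a sum over 6 genes of 6277 to 7442 CPM. Bahd1-KO replicate 2 stood furthest apart in base composition. Relative to the mean of the 6 libraries, the genes of the highest decile by GC content had a median log2 CPM of 1.44 in it, against -0.90 to -0.37 in Bahd1-WT, -0.04 in Bahd1-KO replicate 1 and 0.53 in replicate 3. The members are therefore given with and without that library and with an offset for GC content and transcript length. Every Bahd1-KO library was above every Bahd1-WT library in this measure, so base composition and genotype cannot be told apart. The offset, fitted in each library, also takes out any genotype difference that runs with GC content.

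As deposited, the immediate early genes were mostly higher in Bahd1-KO brains, but no member passed the test, and the direction turned for most of them with the GC and length offset. With edgeR, the log2 fold change was above 0 for 9 of 10 members, against 46.6% of the 23975 genes tested. In the deciles by GC content that hold the members, it was above 0 for 81.9% to 98.4% of expressed genes. Egr2 was the exception among the members, with Dusp1 also below 0 under upper-quartile scaling. The median over the members was 0.80 and over all genes -0.06. Without Bahd1-KO replicate 2 the members' median was 0.39, and with the offset it was -0.14, with 2 of 10 members above 0. With edgeR's quasi-likelihood test and Benjamini-Hochberg adjustment over all genes, 0 of 10 members had an adjusted p under 0.05, against 0.00834% of genes. An edgeR adjusted p under 0.1 with a higher level was found for 3 of 10 members, against 14.7% of genes. The adjustment gives tied values, and the lowest edgeR adjusted p of the members, 0.0634, is shared by genes of several lists below. An unadjusted p under 0.05 with a higher level was found for 6 of 10 members, Fosb, Junb, Nr4a1, Arc, Ier2 and Egr1, against 19.9% of genes, and with a lower level for 0 of 10, against 12% of genes. DESeq2, the tool of the study's methods, gave an adjusted p under 0.05 with a higher level for 5 of 10, Fosb, Junb, Arc, Nr4a1 and Ier2, against 17.7% of the 19308 genes for which it gave a value. Every Bahd1-KO library lay above every Bahd1-WT library for Fosb, Junb, Arc and Nr4a1, 4 of 10 members, against 20.6% of genes. Samples of a genotype were separate mice, and p-values refer to the spread between these few animals.

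**Figure D1:**
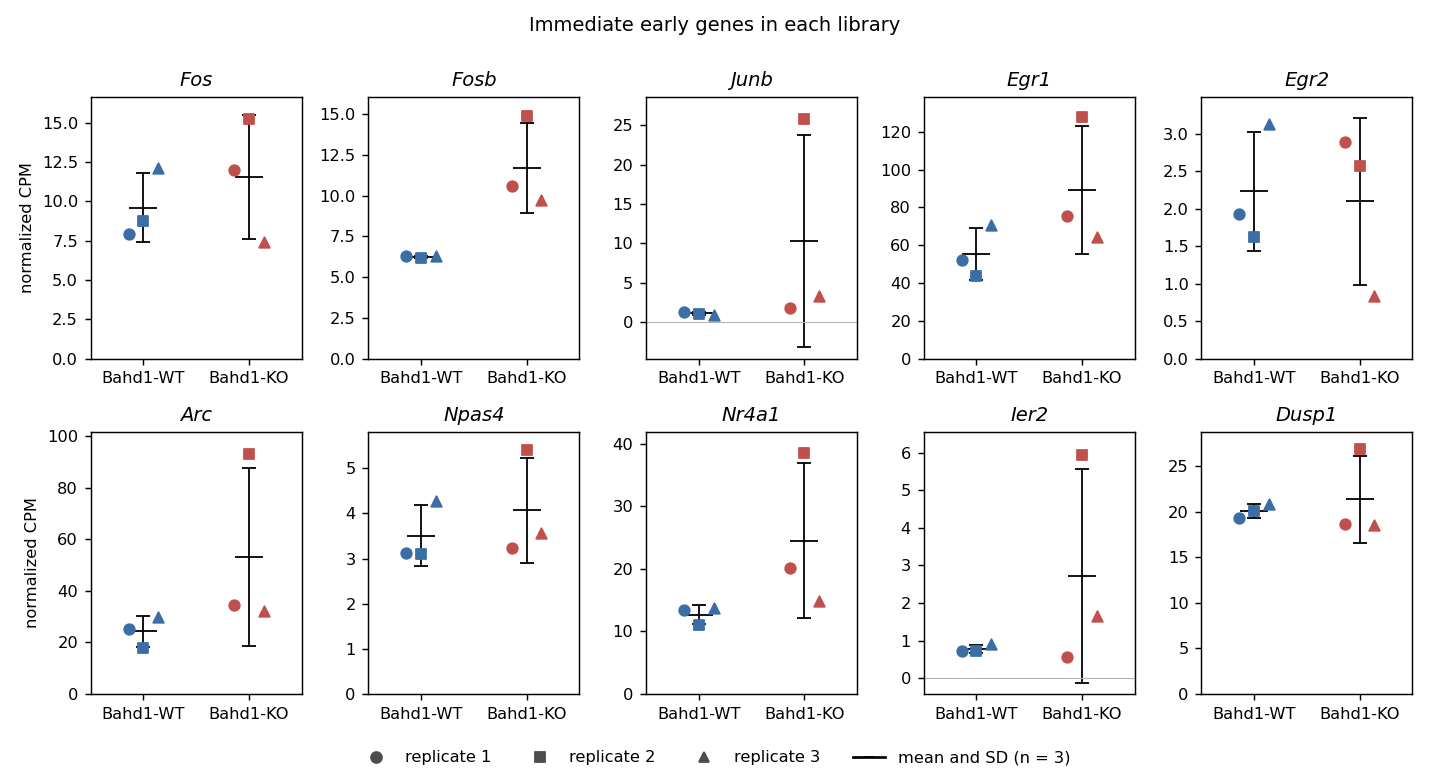
Normalized level (CPM, linear axis) of each immediate early gene in the 3 Bahd1-WT and 3 Bahd1-KO libraries, with one panel and one scale per gene. Symbols are single libraries by replicate number and bars the mean and SD (n = 3 per genotype). Bahd1-KO replicate 2 is the highest of the 6 libraries in 9 of 10 panels, and the lower SD bars of Junb and Ier2 reach below 0 because this library alone raises the SD.

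The upstream sequence of members that were high together in the same libraries is shown first, because these genes are induced through short elements close to the start site. Windows of 250 bases before the RefSeq start sites (GRCm38.p6) were given for 7 of 10 members. Arc, Egr1 and Ier2 had none. Fosb, Junb and Nr4a1 are printed as members with separated genotypes without the offset, and Fos and Dusp1 as members whose genotypes then overlapped. With the offset, only Dusp1 of these had separated genotypes, with Bahd1-KO lower. Capitals mark TGACG, the core of the cyclic AMP response element, the full element TGACGTCA, the EGR site GCGGGGGCG and the TATA element TATAAA, each on either strand (CGTCA and CGCCCCCGC are the reverse strand). The full element contains this core on both strands.
Fosb (chr7:19310046-19310295, minus strand): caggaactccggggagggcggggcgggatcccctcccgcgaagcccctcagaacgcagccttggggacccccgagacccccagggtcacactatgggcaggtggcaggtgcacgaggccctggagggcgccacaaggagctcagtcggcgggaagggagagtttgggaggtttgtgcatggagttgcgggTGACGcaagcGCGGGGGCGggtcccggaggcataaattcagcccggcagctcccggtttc
Junb (chr8:84978749-84978998, minus strand): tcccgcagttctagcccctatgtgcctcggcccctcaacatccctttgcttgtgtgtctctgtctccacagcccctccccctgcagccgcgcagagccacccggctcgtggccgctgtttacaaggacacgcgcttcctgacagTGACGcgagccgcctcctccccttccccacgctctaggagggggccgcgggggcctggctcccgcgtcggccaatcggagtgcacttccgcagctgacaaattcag
Nr4a1 (chr15:101266596-101266845, plus strand): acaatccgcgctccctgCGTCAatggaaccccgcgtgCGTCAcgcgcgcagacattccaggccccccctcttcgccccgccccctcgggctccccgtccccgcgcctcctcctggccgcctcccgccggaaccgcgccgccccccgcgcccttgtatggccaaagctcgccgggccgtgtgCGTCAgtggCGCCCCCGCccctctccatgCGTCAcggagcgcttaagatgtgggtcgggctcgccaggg
Fos (chr12:85473640-85473889, plus strand): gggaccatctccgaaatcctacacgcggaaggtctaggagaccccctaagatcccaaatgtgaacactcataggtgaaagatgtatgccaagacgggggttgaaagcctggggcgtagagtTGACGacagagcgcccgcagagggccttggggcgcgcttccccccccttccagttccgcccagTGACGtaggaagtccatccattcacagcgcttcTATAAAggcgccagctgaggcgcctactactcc
Dusp1 (chr17:26508473-26508722, minus strand): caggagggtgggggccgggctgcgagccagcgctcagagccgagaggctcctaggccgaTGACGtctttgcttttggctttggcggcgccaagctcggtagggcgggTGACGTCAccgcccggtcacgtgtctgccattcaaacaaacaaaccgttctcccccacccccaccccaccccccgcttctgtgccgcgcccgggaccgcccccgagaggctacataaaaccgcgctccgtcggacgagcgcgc
All 7 members with a window held at least 1 such core. Counted by window, since Egr2 has several start sites that share sequence, it was in 9 of 11 windows, against 17.8% of the 32851 windows of that length. The Fosb window had it at position -60 relative to the start site and Junb at -106. Fos held it at -129 and -66, and Npas4 at -179 and -169. Nr4a1 held it 4 times, at -233, -213, -69 and -40. The full element, present in 1.55% of windows, was found in Dusp1 alone, at -143. The EGR site, present in 2.57% of windows, was found in Fosb at -50 and in Nr4a1 at -60. TATAAA was found in Fos at -33, against 12.4% of windows. The CArG box, the core of the serum response element, was found in windows of Egr2 as CCATATATGG and CCTTTTTTGG, against 1.47% of windows. The AP-1 site TGANTCA, present in 6.75% of windows, was in none of them. These are matches of letters, and do not show binding. The windows of Nr4a1, Fosb, Dusp1, Junb and Fos had a GC content of 74.4%, 68.8%, 68.4%, 66.4% and 58.4%, against a median of 52.4% over all windows.

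The AP-1 members encode leucine zipper proteins, in which a FOS protein pairs with a JUN protein to bind DNA. Fos (ENSMUSG00000021250, chr12:85473890-85477273, plus strand), the prototype of the class, was at 7.96, 8.75 and 12.1 CPM in Bahd1-WT replicates 1, 2 and 3 and at 11.998, 15.2 and 7.39 CPM in Bahd1-KO. The lowest and the highest of the 6 libraries were both Bahd1-KO, so the genotypes overlapped over their whole range. The log2 fold change was 0.27 (SE 0.29, edgeR adjusted p = 0.547), and without Bahd1-KO replicate 2 it was 0.0027. It was 0.52 without Bahd1-KO replicate 3 and 0.46 without Bahd1-WT replicate 3.

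Fosb (ENSMUSG00000003545, chr7:19302696-19310051, minus strand), whose product outlasts FOS after repeated stimulation as the truncated ΔFosB, was the most even member in Bahd1-WT, at 6.31, 6.19 and 6.27 CPM. In Bahd1-KO it was at 10.6, 14.9 and 9.74 CPM. The means were 6.25 ± 0.061 (SD, n = 3) and 11.7 ± 2.76 CPM (SD, n = 3), and the groups did not overlap. Its log2 fold change was 0.91 (SE 0.22, 95% interval 0.41 to 1.41, edgeR adjusted p = 0.0634) and stayed at 0.70 without Bahd1-KO replicate 2. Of the 6 members with an unadjusted p under 0.05, Fosb was the one whose value depended least on that library. With the GC and length offset, however, it was at 0.08 (edgeR adjusted p = 0.851) and the groups overlapped. The spread of Fosb between Bahd1-WT libraries was smaller than that of all but 0.58% of genes.

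Junb (ENSMUSG00000052837, chr8:84974484-84978718, minus strand), a JUN protein that restrains c-JUN, had 123, 61 and 70 reads in Bahd1-WT and 77, 2462 and 191 in Bahd1-KO. As CPM this was 1.34, 0.988 and 0.954 CPM against 1.77, 25.9 and 3.30 CPM. One library carried the difference: Bahd1-KO replicate 2 was 7.84 times as high as the next library. The log2 fold change of 3.24 (SE 0.90, edgeR adjusted p = 0.0664) was the largest among the members and was 1.22 without that library, with the groups still apart. Exons of Junb share 173 bases with Prdx2 on the opposite strand, a gene with 5415 to 16442 reads per library and most in Bahd1-KO replicate 2. The methods name a stranded kit and counting by strand, but the labels do not call the kit stranded, so whether the counts separate the strands is not settled. A contribution of Prdx2 reads was not tested.

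The EGR members are zinc finger factors that bind the GC-rich EGR site. Egr1 (ENSMUSG00000038418, chromosome 18), known for its part in memory formation, was the most abundant member by CPM. It was at 52.1, 43.5 and 70.5 CPM in Bahd1-WT and at 75.7, 128 and 64.3 CPM in Bahd1-KO. Bahd1-KO replicate 3 lay below Bahd1-WT replicate 3, so the groups overlapped. With edgeR, the log2 fold change was 0.69 (SE 0.28, edgeR adjusted p = 0.139), and 0.33 without Bahd1-KO replicate 2.

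Egr2 (ENSMUSG00000037868, chr10:67535475-67542188, plus strand), also the master regulator of myelinating Schwann cells, did not follow the other members. It was at 1.93, 1.62 and 3.14 CPM in Bahd1-WT and at 2.90, 2.57 and 0.829 CPM in Bahd1-KO. It was the only member whose highest library was Bahd1-WT, and Bahd1-KO replicate 3 had the lowest level. The log2 fold change was -0.09 (SE 0.45, 95% interval -1.12 to 0.94, edgeR adjusted p = 0.907). Without Bahd1-KO replicate 2 it was -0.29, and it changed sign without Bahd1-WT replicate 3 (0.24) or without Bahd1-KO replicate 3 (0.30).

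Nr4a1 (ENSMUSG00000023034, chr15:101254269-101274795, plus strand) encodes an orphan nuclear receptor. It was at 13.4, 10.9 and 13.7 CPM in Bahd1-WT and at 20.1, 38.5 and 14.9 CPM in Bahd1-KO. The groups did not overlap, but Bahd1-KO replicate 3 was only just above the highest Bahd1-WT library. Its log2 fold change was 0.95 (SE 0.33, edgeR adjusted p = 0.0994), and 0.46 without Bahd1-KO replicate 2.

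Npas4 (ENSMUSG00000045903, chr19:4984355-4990316, minus strand), a neuron-specific factor induced by calcium entry, changed little between the genotypes without the offset. Its level was 3.13, 3.09 and 4.28 CPM in Bahd1-WT and 3.24, 5.40 and 3.58 CPM in Bahd1-KO, with overlapping groups. With edgeR, the log2 fold change was 0.22 (SE 0.27, edgeR adjusted p = 0.585), and -0.04 without Bahd1-KO replicate 2.

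Arc (ENSMUSG00000022602, chr15:74669083-74672570, minus strand) acts at the synapse itself, where its product takes part in the removal of AMPA receptors. It was at 25.3, 18.0 and 29.9 CPM in Bahd1-WT and at 34.4, 93.1 and 32.2 CPM in Bahd1-KO. The groups did not overlap. Bahd1-KO replicates 1 and 3 were close to the highest Bahd1-WT library, and replicate 2 was 2.70 times the next library. The log2 fold change of 1.13 (SE 0.41, edgeR adjusted p = 0.107) was 0.45 without Bahd1-KO replicate 2.

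Ier2 (ENSMUSG00000053560, chr8:84661331-84662852, minus strand), a single-exon gene for a nuclear protein, was the least abundant member in Bahd1-WT by CPM. It was at 0.721, 0.729 and 0.900 CPM in Bahd1-WT and at 0.575, 5.93 and 1.66 CPM in Bahd1-KO. Bahd1-KO held both the lowest and the highest library. The log2 fold change of 1.82 (SE 0.69, edgeR adjusted p = 0.118) was 0.54 without replicate 2, which was 3.58 times the next library.

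Dusp1 (ENSMUSG00000024190, chr17:26505590-26562128, minus strand) encodes a phosphatase that inactivates MAP kinases and so closes the response. Its level was nearly the same in all libraries but one, at 19.3, 20.1 and 20.9 CPM in Bahd1-WT and 18.7, 26.9 and 18.6 CPM in Bahd1-KO. Bahd1-KO replicates 1 and 3 were below every Bahd1-WT library and replicate 2 above. The log2 fold change was 0.09 (SE 0.20, edgeR adjusted p = 0.774), with -0.06 under upper-quartile scaling and -0.11 without Bahd1-KO replicate 2. Its exons share 11 bases with Ergic1 on the opposite strand.

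Levels were also ordered per length, as RPKM, the CPM divided by the exon length in kilobases. In Bahd1-WT the mean RPKM was 12.3 for Egr1, 7.99 for Arc and 6.07 for Dusp1. A middle pair followed, with 4.08 for Fos and 3.61 for Nr4a1. Fosb at 1.00, Npas4 at 0.846, Egr2 at 0.656, Ier2 at 0.515 and Junb at 0.476 were lowest. Neighbours in this order overlapped in their ranges over the 3 mice, except Dusp1 against Fos and Nr4a1 against Fosb, where the order broke into steps. In Bahd1-KO the order was Egr1 at 19.9, Arc at 17.4, Nr4a1 at 6.98, Dusp1 at 6.46, Fos at 4.91, Junb at 4.48, Fosb at 1.88, Ier2 at 1.79, Npas4 at 0.984 and Egr2 at 0.618, and all neighbours overlapped. Egr1 and Arc led in both genotypes, while Junb was last in Bahd1-WT and sixth in Bahd1-KO, through replicate 2.

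Most members, though not all, were high or low in the same libraries of a genotype. Each gene's log2 CPM was set relative to its mean over the 6 libraries and averaged over the 10 members, which gave -0.38, -0.54 and -0.14 in Bahd1-WT replicates 1, 2 and 3 and -0.02, 1.19 and -0.11 in Bahd1-KO. Bahd1-KO replicate 2 was the highest of the 6 libraries for 9 of 10 members, against 39.8% of the 14706 genes with a mean of at least 1 CPM. Within Bahd1-WT, replicate 3 was the highest for 8 of 10 members, against 30.3% of those genes. Within Bahd1-KO, replicate 3 was the lowest for 7 of 10 members, against 18.3% of those genes.

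**Figure D2:**
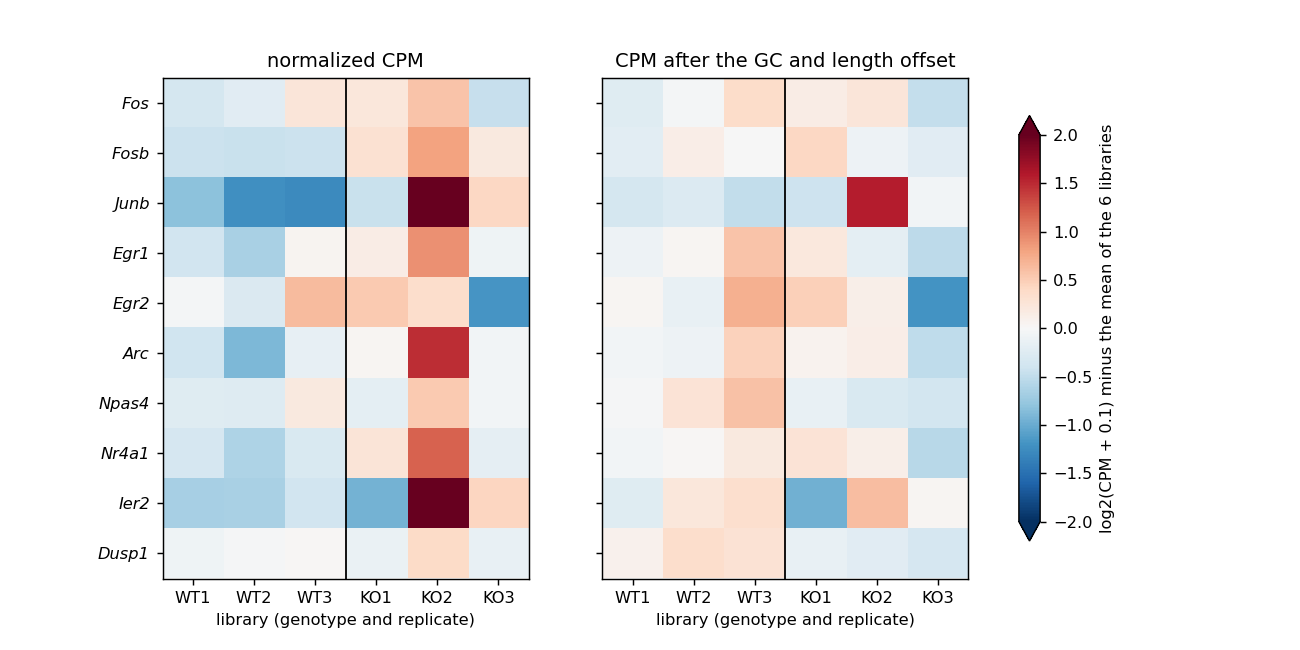
Levels of the 10 immediate early genes in the 6 libraries (WT, Bahd1-WT; KO, Bahd1-KO; numbers are replicates), as log2(CPM + 0.1) minus the gene's mean over the libraries. The colour scale runs from -2 to 2 and values beyond it take the end colour. Left, normalized CPM, with the darkest red for Junb and Ier2 in Bahd1-KO replicate 2. Right, after the GC and length offset, where Bahd1-WT replicate 3 is mostly red and Bahd1-KO replicate 3 mostly blue.

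The fold changes of the members followed their GC content. Over the 10 members Spearman's rho between log2 fold change and the GC content of the longest transcript was 0.927, and over 13283 expressed genes it was 0.862. Genes share libraries and composition, so rho is given as a description. Junb (GC 62.6%), Ier2 (60.9%) and Arc (59.0%), with the largest log2 fold changes, lay in the highest decile of expressed genes by GC content, where the median log2 fold change was 1.401. Egr1 (57.3%), Nr4a1 (57.0%), Fosb (56.0%) and Npas4 (55.6%) lay in the decile below, with a median of 0.89. Dusp1 (54.0%) lay in the next, with a median of 0.54, and Fos (51.9%) and Egr2 (51.4%) in the one after, with a median of 0.27. Junb and Ier2 were above the median of their decile, Fosb and Nr4a1 within 0.1 of theirs and the other 6 members at or below theirs.

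**Figure D3:**
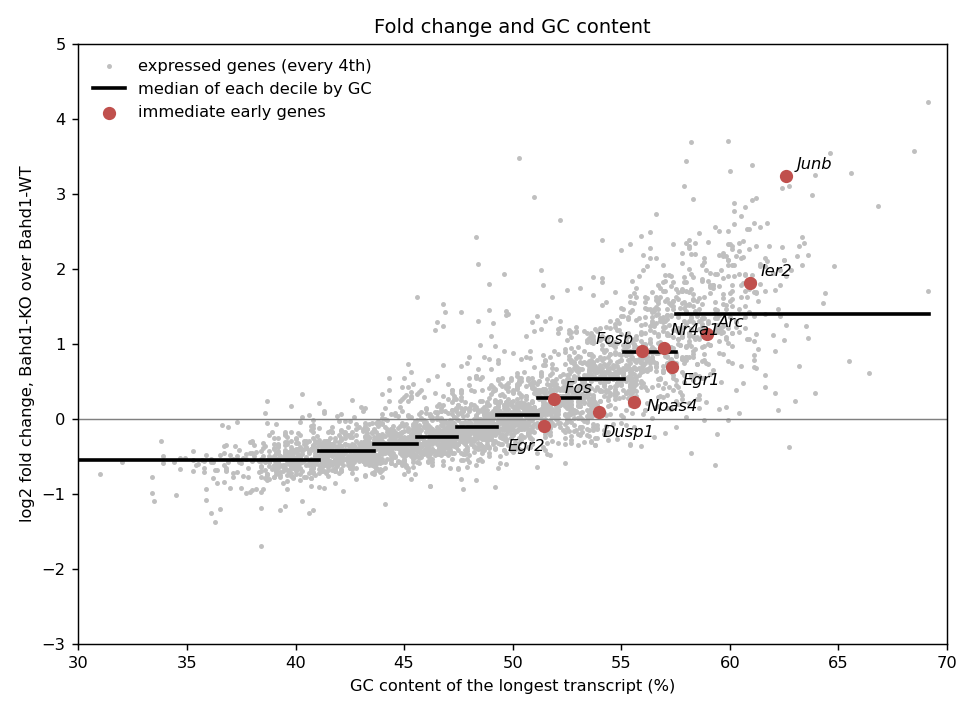
Log2 fold change of Bahd1-KO over Bahd1-WT (edgeR, no offset) against the GC content of the longest transcript (%). Grey points are every 4th expressed gene (those beyond the axes are not drawn), black bars the median of each decile of expressed genes by GC content, and red points the 10 immediate early genes. The members run along the rise of the medians, from Egr2 and Fos near 0 to Ier2 and Junb at the upper right.

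With the offset for GC content and length, fitted in each library over the 13283 expressed genes, the direction turned for most members. Since base composition went with genotype, this turn cannot be told apart from the removal of a genotype difference that runs with GC content. Log2 fold changes were then above 0 for 2 of 10 members, Fosb and Junb, against 43.1% of all genes, and the median over the members was -0.14, against -0.06 over all genes. No member had an adjusted p under 0.05 in this edgeR fit, against 0.0167% of genes, and 3 of 10 had an unadjusted p under 0.05, Junb on the higher side (9.99% of genes) and Npas4 and Dusp1 on the lower (11% of genes). Fosb went from 0.91 to 0.08, Nr4a1 from 0.95 to -0.07, Arc from 1.13 to -0.20, Ier2 from 1.82 to -0.02 and Egr1 from 0.69 to -0.34. No member now had every Bahd1-KO library above every Bahd1-WT library, against 11.6% of genes. Junb went from 3.24 to a log2 fold change of 1.10 (95% interval 0.08 to 2.12, edgeR adjusted p = 0.208), with offset-adjusted levels of 1.88, 1.99 and 1.69 CPM in Bahd1-WT and 1.80, 7.41 and 2.31 CPM in Bahd1-KO. Without Bahd1-KO replicate 2 its log2 fold change with the offset was 0.17.

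Dusp1 and Npas4 had the lowest values under the offset, and neither passed the test. Dusp1 was at 21.8, 26.2 and 25.3 offset-adjusted CPM in Bahd1-WT and at 18.6, 17.6 and 16.3 CPM in Bahd1-KO, a log2 fold change of -0.48 (SE 0.12, edgeR adjusted p = 0.081). Npas4 was at 3.65, 4.50 and 5.65 CPM in Bahd1-WT and at 3.32, 2.97 and 2.85 CPM in Bahd1-KO, a log2 fold change of -0.60 (SE 0.19, edgeR adjusted p = 0.125). For both, every Bahd1-KO library was below every Bahd1-WT library, 2 of 10 members against 14.2% of genes, a share near that of all genes. Without Bahd1-KO replicate 2 the values were -0.49 for Dusp1 and -0.58 for Npas4. Fos stayed near 0, at -0.04, and Egr2 was at -0.31, both with overlapping genotypes.

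**Figure D4:**
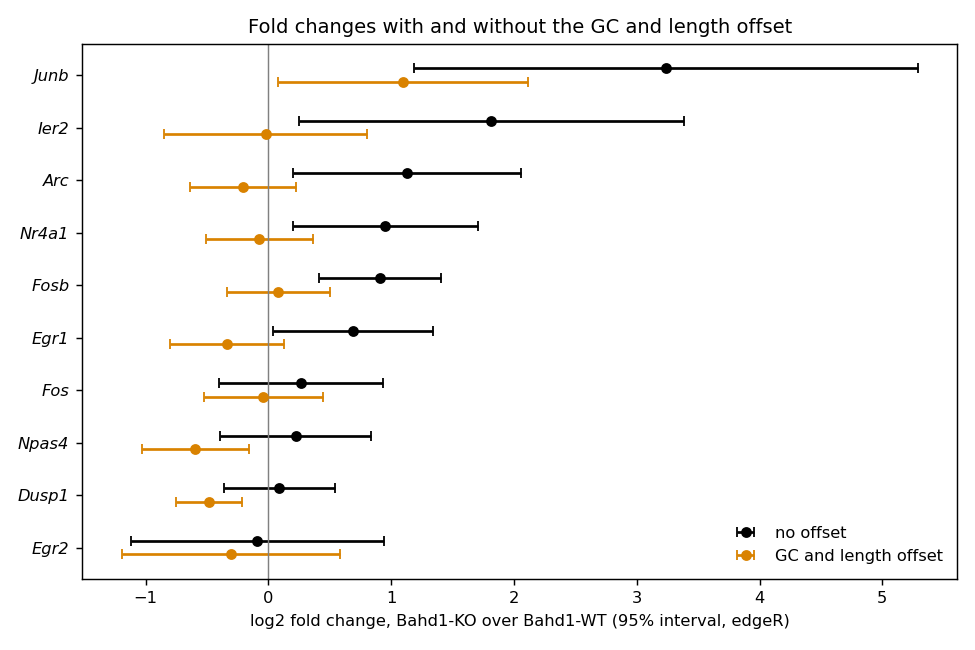
Log2 fold change of Bahd1-KO over Bahd1-WT for each immediate early gene with its 95% interval (edgeR), without (black) and with (orange) the GC and length offset. Without the offset 6 intervals lie above 0. With it, the interval of Junb lies above 0, those of Npas4 and Dusp1 lie below, and the other 7 include 0.

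With the offset, the order of the libraries within a genotype changed in part, with Bahd1-WT replicate 1 in place of replicate 2 as the lowest of its genotype. Averaged over the members, the offset-adjusted level relative to the mean of the 6 libraries was -0.12, 0.05 and 0.31 in Bahd1-WT and -0.01, 0.20 and -0.43 in Bahd1-KO on the log2 scale. Bahd1-WT replicate 3 was still the highest of its genotype for 7 of 10 members, against 42.6% of genes, and Bahd1-KO replicate 3 the lowest of its genotype for 8 of 10, against 24.5%. Bahd1-KO replicate 2, the highest of its genotype for 9 of 10 without the offset (41.9% of genes), was so for 4 of 10 with it (30.7% of genes), and replicate 1 for 6 of 10 (38.3% of genes). These differences between mice of one genotype were wider than the one between the genotype means.

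A further 3 lists covered the rest of the response, 72 genes in all, and none held a gene with an edgeR adjusted p under 0.05. Among 17 other immediate early transcription regulators, 14 had a log2 fold change above 0, with a median of 0.30 that became -0.10 with the offset. An unadjusted p under 0.05 was found for 3 on the higher side and 2 on the lower, against 19.9% and 12% of all genes, and with the offset for 0 and 4, against 9.99% and 11%. Without Bahd1-KO replicate 2 the median was 0.22, without Bahd1-KO replicate 1 it was 0.20 and without Bahd1-KO replicate 3 it was 0.46. Csrnp1, a nuclear factor rich in cysteine and serine, was at 1.70 to 2.23 CPM in Bahd1-WT and 3.03 to 5.96 CPM in Bahd1-KO, a log2 fold change of 1.23 (edgeR adjusted p = 0.0634). Egr4, another EGR factor (1.63), and Fosl1, a FOS relative (2.37), were the others on the higher side, and Fosl1 was near the floor of 3 counts in Bahd1-WT, at 0.0136 to 0.0486 CPM. With the offset Csrnp1 was at 0.23, Egr4 at -0.73 and Fosl1 at 1.16, with edgeR adjusted p-values of 0.476, 0.292 and 0.317. Btg2, an antiproliferative regulator of mRNA decay, was lower, at 13.2 to 17.2 CPM in Bahd1-WT and 9.60 to 10.4 CPM in Bahd1-KO, a log2 fold change of -0.60 (edgeR adjusted p = 0.0783). Unlike the members above, Btg2 kept its value with the offset, at -0.64 (edgeR adjusted p = 0.0727). Jund, a JUN partner of the FOS proteins and named here after its values were seen, was at 1.10 without the offset and at -1.23 with it (edgeR adjusted p = 0.0727), with every Bahd1-KO library then below every Bahd1-WT library. Klf6, a zinc finger factor, was at -0.50, and Nr4a2, the close relative of Nr4a1, at -0.02.

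The 26 other effector and feedback genes were balanced, with 15 above 0 and a median of 0.04 (0.01 with the offset). An unadjusted p under 0.05 was found for 7 on the higher side and 1 on the lower, against the same 19.9% and 12% of all genes, and with the offset for 4 and 5, against 9.99% and 11%. The median was 0.064 without Bahd1-KO replicate 2. The growth arrest gene Gadd45g (3.70), the neuropeptide precursor Vgf (2.11) and the clock gene Per1 (1.69) had the lowest p on the higher side, each with an edgeR adjusted p of 0.0634. All were highest in Bahd1-KO replicate 2, as were 9 of 10 members, with 23.8, 125 and 75.9 CPM there. With the offset Gadd45g went from 3.70 to 1.83 (edgeR adjusted p = 0.091), while Vgf and Per1 were at 0.23 and 0.34. On the lower side were Tiparp (-0.77), a mono-ADP-ribosyltransferase, the matricellular gene Cyr61 (-0.41) and the kinase Plk2 (-0.26), of which Cyr61 was at -0.83 with the offset (edgeR adjusted p = 0.0727).

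Upstream of the members, 13 of 29 signalling and partner genes were above 0, with a median of -0.05 (-0.07 with the offset). Of these genes, 10 had an unadjusted p under 0.05 on the higher side and 6 on the lower, against 19.9% and 12% of all genes, and 3 and 3 with the offset, against 9.99% and 11%. The median was -0.077 without Bahd1-KO replicate 2. Srf, the factor of the serum response element, had a log2 fold change of 1.46, Map2k2, a kinase of the MAP kinase cascade, 2.34, and Nab2, a corepressor of EGR factors, 0.97, each with an edgeR adjusted p of 0.0634. Creb1, the factor of the cyclic AMP response element, was at -0.56, Rps6ka3, which encodes the CREB kinase RSK2, at -0.55, and Arnt, a partner of bHLH-PAS factors, at -0.41. The GC content was 60.1% to 64.4% for the first 3 genes and 39.6% to 47.9% for the others, which were named for their low p. With the offset Srf was at -0.29, Nab2 at -0.35 and Creb1 at 0.03, while Map2k2 went from 2.34 to 0.77 (edgeR adjusted p = 0.075).

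**Figure D5:**
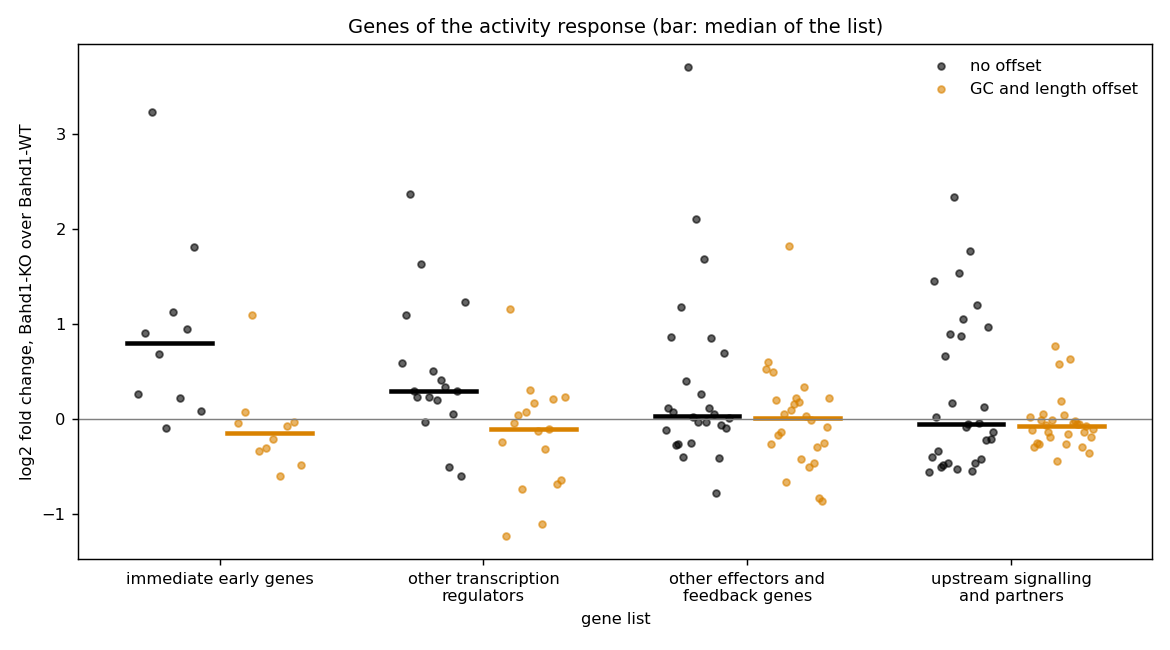
Log2 fold change of Bahd1-KO over Bahd1-WT for the 10 immediate early genes and for 3 lists of related genes (17, 26 and 29 genes), without (black) and with (orange) the GC and length offset. Points are genes and bars the list medians. The bar of the immediate early genes drops from 0.80 to -0.14, and with the offset the bars of all lists lie near 0.

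Other cell types differed between the same libraries. The summed level of 6 markers of cortical and hippocampal excitatory neurons, cells with strong Arc and Egr1 induction, was 549 to 727 CPM in Bahd1-WT and 690 to 1014 CPM in Bahd1-KO, with the top of each range in the libraries with the highest member levels, Bahd1-WT replicate 3 and Bahd1-KO replicate 2. Of these markers, 3 of 6 had a log2 fold change above 0 and none was at 0 counts. Their median was 0.25, and -0.18 with the offset. Oligodendrocyte markers summed to 5060 to 5853 CPM in Bahd1-WT and 5303 to 8245 CPM in Bahd1-KO, and striatal neuron markers to 401 to 451 and 395 to 586 CPM, both highest in Bahd1-KO replicate 2, with 3 of 6 and 4 of 6 markers higher in Bahd1-KO (4 of 6 and 1 of 6 with the offset). Red cell markers summed to 10.8 to 15.9 CPM in Bahd1-WT and 15.1 to 92.6 CPM in Bahd1-KO, highest in replicate 2, and 4 of 5 were higher in Bahd1-KO. Markers of lung epithelium summed to 118, 27.6 and 2.65 CPM in Bahd1-WT and to 0.644 to 1.86 CPM in Bahd1-KO, with 8 of 8 lower in Bahd1-KO and the surfactant gene Sftpd at 0 counts in all Bahd1-KO libraries. Bahd1-WT replicate 1, with the highest sum of lung markers, was the highest of its genotype for 2 of 10 members, against 39.6% of genes. Astrocyte markers summed to 5262 to 5728 CPM in Bahd1-WT and 3305 to 4948 CPM in Bahd1-KO, with 4 of 6 lower and a median of -0.31, which was -0.12 with the offset. Microglia markers summed to 294 to 333 CPM in Bahd1-WT and 224 to 308 CPM in Bahd1-KO, lowest in replicate 2, with 3 of 6 higher in Bahd1-KO. Of the pan-neuronal markers, 4 of 6 were higher in Bahd1-KO, with a median of 0.37, and 0.18 with the offset. The part of these cells in the levels of the members was not tested.

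The genes whose pattern over the 6 libraries was most like the mean of the members were sought among 14624 other genes with at least 1 CPM, by the root mean square distance of log2 CPM after centring. They were AW047730 (0.0752), Lrfn1 (0.0777), Macrod1 (0.0819), Rps2 (0.0950) and Mrpl55 (0.0973), on the log2 scale. Their GC content was 52.8% to 63.5%, the range in which most members lie. Of the members, Nr4a1 (0.141), Egr1 (0.166) and Arc (0.189) were closest to the mean pattern, and Ier2 (0.671), Egr2 (0.715) and Junb (1.12) were the farthest, with 56.2%, 62.0% and 98.6% of the other genes closer than they were.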

How the data were processed

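RNA-seq of one hemisphere from each of 3 Bahd1-WT and 3 Bahd1-KO mice was used, with groups and replicate numbers taken from the labels. According to the methods, polyadenylated RNA was made into directional libraries (the labels do not call the kit stranded), and the authors removed adapters with cutadapt (1.11), aligned reads to GRCm38 with STAR (2.5.0a, with Tophat2 also named) and counted them on exons by strand with featureCounts (1.4.6-p3). The deposited table holds raw counts for 53801 genes, with 1 column per mouse and 0 columns of other samples.

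A filter of 10 reads in total across the libraries left 23975 genes. The main test was edgeR 4.0.16 (R 4.3.3) with TMM scaling, a quasi-likelihood fit on genotype alone and Benjamini-Hochberg adjustment over all genes kept. CPM uses TMM library sizes. Log2 levels were centred after adding 0.1 CPM. RPKM divides CPM by the exon length of GENCODE M21, which also gave positions, overlaps and the GC content of the longest transcript (23940 genes). For the offset, log2 CPM was fitted in each library by natural splines of GC content (5 degrees of freedom) and of log length (3), over genes whose mean log2 CPM exceeded 1. DESeq2 1.42.0, with and without the normal prior, other scalings and filters, leaving out each library, the replicate block and the offset were alternatives, and the offset without Bahd1-KO replicate 2 was added after the data were seen. The scripts were tested on simulated counts.

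The members and lists were chosen with earlier results of these data known. All members were named, with the 3 genes of lowest p on each side of every list and the 5 genes most like the members. One marker, Ca8, was matched by its synonym Car8. Promoter windows came from RefSeq. The embryonic samples and the behavioral data were not analysed here.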

Additional observations from a re-analysis of the deposited data

How the results depend on the processing

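The median log2 fold change of the members stayed above 0 and 0 members were called with DESeq2's size factors, upper-quartile factors or filterByExpr in edgeR. Upper-quartile factors shifted the median of all genes from -0.06 to -0.20, with Dusp1 at -0.06 and the effector median at -0.10. Total counts alone called 1 member (Fosb) and 2253 genes (9.4%), with the upstream median at 0.026. The counts were 5 members and 4112 genes for DESeq2 without prior and 5 and 4107 with the prior (each 21.3% of 19308 genes), and 5 and 3611 with no filter beyond 1 count (11% of 32795 genes), against 0 and 2 in edgeR as reported. In each case the 5 were Fosb, Junb, Arc, Nr4a1 and Ier2.

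Leaving out a library gave 0 to 5 members and 0 to 7113 genes called, with both maxima without Bahd1-KO replicate 1 (30% of 23690 genes), and the members' median ranged from 0.39 (without Bahd1-KO replicate 2) to 0.97. Without Bahd1-KO replicate 2, Npas4 was at -0.039 and Dusp1 at -0.11, the lower end of a range for Dusp1 that reached 0.21 without Bahd1-KO replicate 1. Without Bahd1-KO replicate 1 the effector median was -0.063 (0.16 without Bahd1-KO replicate 3) and the upstream median 0.054, and without Bahd1-WT replicate 1 the latter was 0.0048. Egr2 was at 0.24 without Bahd1-WT replicate 3 and 0.30 without Bahd1-KO replicate 3.

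With the GC and length offset, alone, with the replicate block and without Bahd1-KO replicate 2 in that order, 2 members were higher in each case, the members' median was -0.14, -0.20 and -0.32, and 4, 9 and 5 genes were called. The values were -0.040, -0.047 and -0.18 for Fos, -0.34, -0.34 and -0.31 for Egr1, -0.20, -0.20 and -0.32 for Arc, -0.60, -0.58 and -0.58 for Npas4, -0.073, -0.11 and -0.15 for Nr4a1, -0.023, -0.20 and -0.49 for Ier2, -0.48, -0.48 and -0.49 for Dusp1, and -0.10, -0.12 and -0.038 for the median of the other transcription regulators. The effector median was -0.0096 without that library. The cause was not tested.

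Same-numbered mice did not deviate together (correlations of -0.22, -0.24 and -0.02), and the labels state no pairing. So few correlations cannot exclude one. The replicate block called 0 members and 7 genes and gave a members' median of 0.74. At 42297150 to 93557948 counts per library, depth limits scarce genes such as Fosl1.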

Other observations

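The balance between Fosb and Fos, which share induction signals, leaned further to Fosb in Bahd1-KO, a comparison chosen after the values were seen and not tested. For each read of Fos there were 0.793, 0.707 and 0.518 reads of Fosb in Bahd1-WT and 0.881, 0.978 and 1.32 in Bahd1-KO. The 3 Bahd1-KO libraries were all above the Bahd1-WT libraries, and the highest ratio belonged to Bahd1-KO replicate 3, the library with the least Fos. Fosb has the higher GC content (56.0% against 51.9%), and the ratio of the levels adjusted for GC content and length was 0.848, 0.933 and 0.643 in Bahd1-WT and 0.995, 0.656 and 0.995 in Bahd1-KO, so that the genotypes overlapped.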
